A study of Arabidopsis thaliana with 12 samples.

Results

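CP1 (AT4G36880, probe set 246250_at) and scpl31 (AT1G11080, probe set 260475_at) are 2 protease genes of Arabidopsis thaliana that were followed in roots after transfer to a medium short of sulfur. They were taken as the probe sets that the platform table pairs with 1 of these genes alone. They are 2 of the 22746 probe sets of the array that are not controls, with 1 probe set for each gene. The genes were chosen with their signals on these arrays already known, so their levels and differences are given as a description, without a test.

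The study measured RNA from whole roots of ecotype Columbia on 12 one-colour Affymetrix arrays, 2 for each of 6 groups. All seedlings grew for 5 days on standard Murashige and Skoog (MS) medium. The 0 h group was then moved to fresh standard medium, and the other groups to sulfur-deficient medium for 3, 12, 24, 48 or 72 h. By its recipe, that medium held magnesium, iron, manganese and zinc as chlorides, with sucrose and agar. Roots kept on standard medium were sampled at 0 h alone, so sulfur deficiency cannot be told apart from the move itself, from the age of the seedlings or from the hour at which roots were taken. The labels number the replicates but do not say that they came from separate cultures, so every error given measures the spread between these arrays, which may be technical.

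CP1, also named RDL1 or RD21A-like protease 1 in the gene table, belongs to the papain-like cysteine proteases. These enzymes cut proteins with a cysteine in the active site and are made as inactive precursors whose prodomain must be removed. In plants they act in the vacuole and outside the cell, in protein turnover, defence and ageing. The serine carboxypeptidases, to whose family scpl31 (serine carboxypeptidase-like 31) belongs, remove amino acids from the carboxyl end of a protein by means of an active-site serine. Some plant members of that family have become acyltransferases that build secondary compounds.

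The arrays had one scale, with 2% trimmed means of 250.02 to 250.03 in MAS5 signal, a linear intensity. The deposited table held no detection calls, so the 40th percentile of each array, a signal of 45.3 to 50.4, served as the mark of a dim probe set. CP1 and scpl31 lay above it on all 12 arrays. Of the 14678 probe sets that were tested, between 1.08% and 3.44% differed at least 2-fold between the 2 arrays of a group. Of 14 root marker genes on a list, 6 had a probe set of their own, and all 6 lay above the 40th percentile on all 12 arrays, among them the root hair expansins EXPA7 and EXPA18. Their summed signal was 1948.6 and 2433.4 on the 0 h arrays and between 1100.0 and 1754.9 on the 10 later arrays. Mean signals of EXPA7 and EXPA18 were 794.1 and 604.2 at 0 h, and 249.7 and 295.8 at 3 h. The rest of the 6 showed no such fall. Means of AGL42 were 109.3 at 0 h and 118.3 to 146.1 later, and those of GSO1 were 425.2 and 370.2 to 528.5. For AT4G28100 they were 163.1 and 126.3 to 163.4, and for LBD16 95.0 and 72.0 to 95.5. Mainly through EXPA7 and EXPA18, the summed signal thus separated 0 h from the later groups as CP1 did, in the opposite direction. Its part in the differences below was not tested. The 2 of 9 green tissue markers with a probe set of their own, RCA and LHCB4.1, were also above the 40th percentile on all 12 arrays. Both were lowest at 12 h, with means of 213.5 and 118.9 against 397.1 and 207.3 at 0 h. Means at 24 to 72 h were 362.4 to 394.8 for RCA and 197.5 to 228.8 for LHCB4.1. Their summed signal was 515.3 and 707.8 on the 24 h arrays, 513.3 and 726.2 at 48 h, and 468.5 and 651.3 at 72 h. The part of these markers in the differences below was not tested.

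CP1 was low in roots on standard medium and high at every time on deficient medium. Its signal was 116.7 and 133.5 on the 0 h arrays and 443.2 and 511.1 on the 3 h arrays. At 12 h it was 704.2 and 805.6, the highest group. All 10 arrays from deficient medium were above both 0 h arrays, and the lowest of them, at 3 h, was 3.32 times the higher 0 h array. The signals were 752.6 and 620.9 at 24 h, and 637.7 and 677.8 at 48 h. At 72 h they were 520.5 and 741.6, the widest gap between arrays of a group for this gene. From 12 h on, the arrays of each group overlapped with those of the next time.

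At 0 h the mean signal of CP1 was 125.1 ± 11.9 (SD, n = 2). It was 477.2 ± 48.1 (SD, n = 2) after 3 h, a log2 difference of 1.93 ± 0.18 (SE) or 3.81-fold. At 12 h the mean was 754.9 ± 71.7 (SD, n = 2), with a log2 difference from 0 h of 2.59 ± 0.18 (SE) or 6.03-fold. Most of the difference was thus present at the first time sampled, and both 12 h arrays lay above both 3 h arrays, by 0.66 ± 0.18 (SE) in log2 means. The log2 difference from 0 h was 2.45 at 24 h, 2.40 at 48 h and 2.32 at 72 h, each with an SE of 0.18. Each of these means lay a little under the one before it, but the steps of -0.14, -0.06 and -0.08 were smaller than their SE of 0.18, and the arrays of successive times overlapped.

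In order of level, CP1 ran from 0 h through 3, 72, 48 and 24 h to 12 h. The groups at 72, 48, 24 and 12 h did not separate from their neighbours in that order. The 3 h and 72 h arrays did not overlap, but their log2 means were 0.38 apart, close to the SD of 0.36 between the 72 h arrays. The place of CP1 among the non-control probe sets of an array went from percentiles of 56.2 and 58.7 at 0 h to 83.3 and 85.4 at 3 h, and lay between 85.4 and 90.5 on the later arrays. RNA from the whole root was measured, so a change in the number of cells that hold the transcript and a change in the level per cell cannot be told apart.

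**Figure D1:**
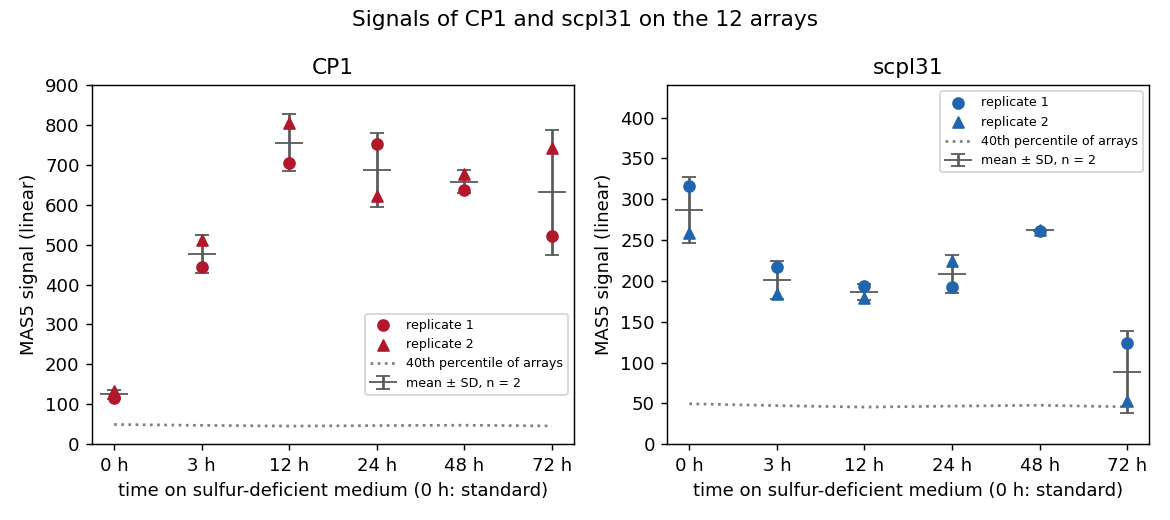
MAS5 signal (linear, from 0) of CP1 and scpl31 on each of the 12 arrays, by time on deficient medium, with times evenly spaced; circles are replicate 1, triangles replicate 2, bars the mean ± SD of 2 arrays and the dotted line the mean 40th percentile of the group's arrays. CP1 lies at 116.7 and 133.5 at 0 h and at 443.2 or more on every later array, while scpl31 reaches its lowest values, 123.6 and 52.9, at 72 h.

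The signal of scpl31 followed another course: it was highest at 0 h, lower at 3 to 24 h, near its starting level at 48 h and lowest at 72 h. The 0 h arrays read 315.7 and 258.4. They were 217.4 and 184.2 at 3 h, and 193.3 and 179.2 at 12 h. At these times the arrays all lay below both 0 h arrays. At 24 h the signal was 192.1 and 225.0, still below both. At 48 h it was 261.5 and 262.6, between the 0 h arrays. At 72 h it was 123.6 and 52.9, below every array of the other groups.

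In log2 means, scpl31 differed from 0 h by -0.51 at 3 h, -0.62 at 12 h, -0.46 at 24 h and -0.12 at 48 h, each with an SE of 0.29. That SE rests on a spread shared by all groups, so it is the same for every difference of this gene. The SD of log2 signals was 0.865 at 72 h and between 0.004 and 0.204 in the other groups. The SE thus lies under the SD at 72 h and above that of each other group. The difference at 48 h changed sign when 0 h replicate 1 was left out (0.02). At 72 h the difference was -1.82 ± 0.29 (SE), from a mean signal of 287.1 ± 40.5 (SD, n = 2) to 88.3 ± 50.0 (SD, n = 2). The size of that value rests on how the 2 arrays at 72 h are weighed, since they were 2.33-fold apart, against 1.00-fold to 1.22-fold in the other groups. Without 72 h replicate 2 it was -1.21, and without 72 h replicate 1 it was -2.43.

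The step from 48 h to 72 h was -1.70 ± 0.29 (SE) for scpl31, the 19th lowest of 14678 probe sets tested. On 72 h replicate 2 the signal of 52.9 stood near the array's 40th percentile of 45.6, where the size of a log2 difference is uncertain. CP1 on the same array was at 741.6 against 520.5 on the other 72 h array, so the 2 genes deviated in opposite directions there. The 3' over 5' signal ratio of the actin control was 2.38 on 72 h replicate 1 and 3.19 on replicate 2, where all 12 arrays ran from 2.38 to 3.44. This gap between replicates was the widest of the 6 groups for that ratio. The other controls did not show it: on 72 h replicates 1 and 2 the ratio was 1.05 and 1.03 for GAPDH, and 0.97 and 1.07 for ubiquitin. The part of the actin gap in the result was not tested. At 72 h, 173 of 14678 probe sets (1.18%) differed at least 2-fold between the 2 arrays, and scpl31 was among the 120 that were higher on replicate 1.

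In order of level, scpl31 ran from 72 h through 12, 3, 24 and 48 h to 0 h. The groups at 12, 3 and 24 h overlapped with their neighbours, as did 48 h and 0 h. The 72 h arrays were apart from the 12 h arrays by 1.20 in log2 means, with an SD of 0.86 at 72 h. The 24 h and 48 h arrays did not overlap and were 0.33 apart. Over the 12 arrays, log2 signals of CP1 and scpl31 had a Pearson's r of -0.44 and a Spearman's rho of -0.48; these values describe arrays that share their groups and scaling.

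The other papain-like cysteine proteases gave a setting for CP1. The list was made by locus number and name, and apart from CP1 its 18 genes with a probe set of their own include 10 that were tested. Other listed family members had no probe set that could be named here, so the comparison covers part of the family. At 3 h, 1 of these 10 was lower and 0 were higher at an adjusted p of 0.05 or less (limma over all probe sets tested), with 5 at an unadjusted p under 0.05. Over all 14678 probe sets tested, 5.42% were higher and 6.53% lower at 3 h by the adjusted p. The share over all probe sets at an unadjusted p under 0.05 is not given here. Counts at that threshold, for this list and the others, therefore have no background beside them and are not read as a response. The median log2 difference of the 10 was -0.30, against -0.01 over all probe sets tested, and their values ran from -0.97 to 0.80, where CP1 stood at 1.93.

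AT3G19390, put on that list by its locus number, was the gene that fell at 3 h. Its signal was 1863.9 and 2288.2 at 0 h, and 1319.7 and 846.4 at 3 h. All 10 later arrays lay below both 0 h arrays. It fell by 0.97 ± 0.19 on the log2 scale at 3 h (SE, limma, adjusted p = 0.00433), and this call held under all 19 alternatives run. Differences at 12, 24, 48 and 72 h were -0.90, -0.75, -0.82 and -0.83 (adjusted p = 0.0107, 0.0414, 0.0322 and 0.0217). Each of these later calls was lost when 0 h replicate 2 or either array of the later group was left out. Those at 24, 48 and 72 h were also lost with a prior variance that ignores the signal level. The call at 24 h held under only 7 of the 19 alternatives. The highest adjusted p was 0.0903 at 12 h, 0.288 at 24 h, 0.244 at 48 h and 0.170 at 72 h.

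At 12 h, 2 of the 10 were lower and 0 higher, with 4 at an unadjusted p under 0.05, against 4.33% lower and 3.36% higher over all probe sets tested. AT3G19400, the neighbour of AT3G19390 by locus number and also listed by it, was the second. Its signal went from 317.8 and 295.3 at 0 h to 166.8 and 183.2 at 12 h. It fell by 0.81 ± 0.14 on the log2 scale (SE, limma, adjusted p = 0.00317), a call kept under all 19 alternatives, and stood at -0.16, -0.43, -0.27 and -0.33 at 3, 24, 48 and 72 h, none of which passed.

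At 24 h and at 48 h, 1 of 10 was lower and 0 higher, with 3 at an unadjusted p under 0.05 each time. Over all probe sets tested, 2.36% were lower and 2.47% higher at 24 h, and 1.55% lower and 1.97% higher at 48 h. At 72 h, 1 was lower and 1 higher, against 3.26% lower and 2.91% higher over all probe sets tested. The higher one was AT2G34080, at 1.19 ± 0.32 (SE, limma, adjusted p = 0.0396). Its 0 h signals of 40.1 and 28.0 were under the 40th percentile of their arrays, and it passed the filter through the later groups. The size of this difference is thus uncertain. The call on AT2G34080 held under 9 of 18 alternatives, among them the offset (0.89, adjusted p = 0.0383). That call was lost with no filter, with the compared groups alone and, among others, without 0 h replicate 2 or either 72 h array. CP1 stood above each of these 10 at each of the 5 times, with the highest of them at 0.91 at 12 h and at 1.19 at 72 h.

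The other tested members of that list did not pass at any time. AT3G43960 stood between -0.53 and -0.31, AT4G01610 between -0.42 and 0.24, AT1G02305 between -0.40 and 0.15, AT3G45310 between -0.28 and 0.08, and AT4G16190 between -0.08 and 0.27. The dim genes AT1G02300 and AT2G21430, above the 40th percentile on 7 and 6 arrays, stood between -0.45 and 0.37 and between -0.61 and 0.15. Medians of the 10 were -0.25 at 12 h, -0.03 at 24 h, 0.11 at 48 h and 0.11 at 72 h, against -0.02, 0.00, 0.01 and 0.00 over all probe sets tested.

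**Figure D2:**
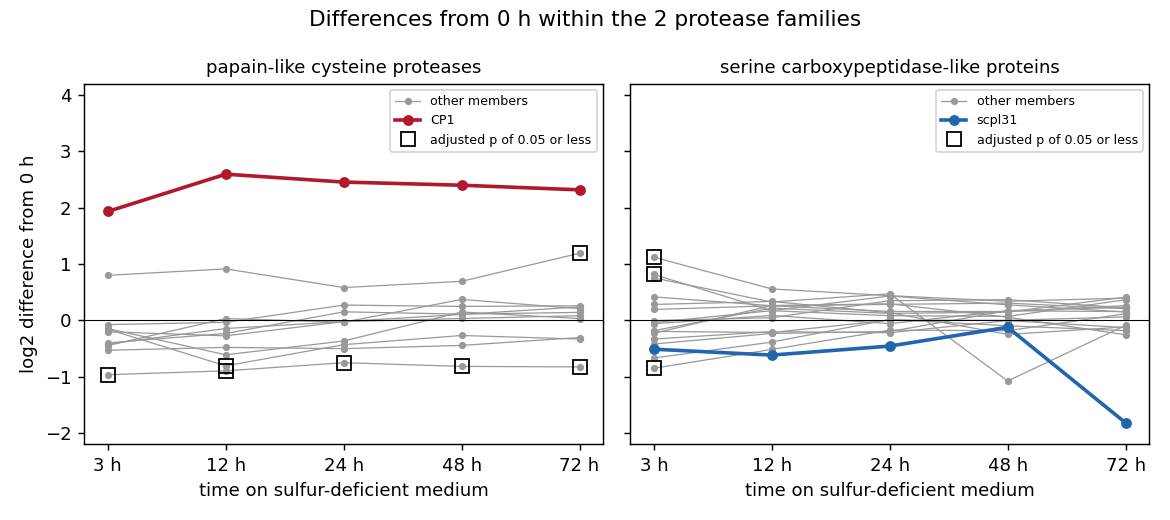
Log2 difference from 0 h (vertical axis) at each time on deficient medium (times evenly spaced) for the tested papain-like cysteine proteases on the left and serine carboxypeptidase-like genes on the right; each grey line is 1 gene, the coloured line is CP1 or scpl31, and open squares mark other genes at an adjusted p of 0.05 or less. CP1 stands between 1.93 and 2.59, above the other 10, and scpl31 at 72 h stands at -1.82, below the other 16, which ran from -0.26 to 0.41.

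Among serine carboxypeptidase-like genes, 28 besides scpl31 had a probe set of their own and 16 were tested. At 3 h, 2 of the 16 were higher and 1 was lower, with 4 at an unadjusted p under 0.05, beside the shares over all probe sets already given for that time. At 12, 24, 48 and 72 h the limma fit called 0 of the 16, with 2, 1, 1 and 2 at an unadjusted p under 0.05. In either direction, 7.69%, 4.83%, 3.52% and 6.17% of all probe sets tested were called at these times, and 12.0% at 3 h. Medians of the 16 were -0.05 at 3 h, 0.17 at 12 h, 0.13 at 24 h, 0.11 at 48 h and 0.15 at 72 h. At 72 h, where scpl31 stood at -1.82, the other 16 ran from -0.26 to 0.41.

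The most stable of these calls was scpl28, whose signal was 224.0 and 247.3 at 0 h, and 429.8 and 397.6 at 3 h. It rose by 0.81 ± 0.14 on the log2 scale at 3 h (SE, limma, adjusted p = 0.00169), a call kept under all 19 alternatives. At 12 to 72 h it stood between 0.07 and 0.36 and did not pass. SCPL34 fell by 0.85 ± 0.22 at 3 h (SE, limma, adjusted p = 0.0231), from 307.3 and 446.5 to 206.4 and 204.3. Its call held under 14 of 19 alternatives. It was lost with a prior variance that ignores the signal level, with the compared groups alone, and without 0 h replicate 2 or either 3 h array.

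The third, scpl46, rose by 1.12 ± 0.33 at 3 h (SE, limma, adjusted p = 0.0389). Its arrays read 38.0 and 72.1 at 0 h against 85.3 and 151.9 at 3 h, so a 0 h value was below the 40th percentile. That call held under 5 of 18 alternatives, with values from 0.66 to 1.58. The other 13 tested members did not pass at any time. They include SCPL49, which the gene table also names carboxypeptidase Y, after a vacuolar enzyme of yeast, at -0.01 to 0.37. The brightest of the rest, scpl29 and scpl48, stood between -0.25 and 0.33 and between -0.06 and 0.17. SCPL27 stood between -0.42 and 0.23, SCPL45 between 0.19 and 0.31, scpl20 between -0.04 and 0.43, scpl25 between -0.33 and -0.01, scpl26 between -0.22 and 0.06, scpl35 between -0.26 and 0.29, scpl40 between -0.18 and 0.41, scpl42 between -0.67 and 0.01 and scpl50 between 0.16 and 0.42. The dim scpl18, above the 40th percentile on 2 arrays, ranged from -1.08 to 0.75.

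Other protease and protease inhibitor genes were few on the array under a single gene name. Of 4 tested subtilases, serine proteases related to bacterial subtilisin, SBT3.5 rose at 12 h by 0.88 ± 0.21 on the log2 scale (SE, limma, adjusted p = 0.0195), from 468.4 and 357.3 to 789.6 and 720.9. That call was lost with a prior variance that ignores the signal level, and without 0 h replicate 2 or either 12 h array. Over all probe sets tested, 3.36% were called higher and 4.33% lower at 12 h. SBT4.12 at -0.61 did not pass at that time. SBT1.3 did not pass at any time. It came closest at 24 h, at -1.15 ± 0.32 (SE, limma, adjusted p = 0.0545). Both of its 24 h signals were under the 40th percentile of their arrays, so the size of that difference is uncertain.

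None of the 3 tested legumain-type vacuolar processing enzymes, which mature other vacuolar proteins, passed at a single time. Over all probe sets tested, 3.52% to 12.0% were called at a given time. With limma's F test over the 5 differences from 0 h, 1 of the 3 passed, ALPHA-VPE (adjusted p = 0.0175). By that test 2 of the 10 papain-like proteases, 1 of the 16 carboxypeptidase-like genes and 1 of the 4 subtilases passed. These are 5 of 39 genes over all 8 lists (12.8%), against 11.7% of all probe sets tested, a share near the background. ALPHA-VPE stood at -0.17, -0.29, 0.30, 0.66 and 0.62 from 3 h to 72 h, and GAMMA-VPE at -0.34, -0.18, 0.18, 0.39 and 0.37. BETA-VPE stood between -0.23 and 0.29. In the limma fit 0 of the 6 other tested genes passed at any time: the inhibitors CYS1 (a cystatin, which blocks papain-like proteases) and SERPIN1, the aspartic proteinase APA1, the organelle protease subunits CLPP4 and NCLPP7, and the proteasome subunit RPN12a, where 3.52% to 12.0% of all probe sets tested were called at a given time. Of these 6, NCLPP7 at 72 h and CLPP4 at 12 h had an unadjusted p under 0.05. CYS1 stood between -0.17 and 0.30, and SERPIN1 between -0.03 and 0.20.

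Genes with a course like that of CP1 were sought among the 7957 other tested probe sets paired with 1 gene, by Pearson's r of log2 signals over the 12 arrays. The 5 highest were AT1G27030 (0.96), AT5G16980 (0.95), AT5G37990 (0.94), AT1G61930 (0.94) and AT1G75290 (0.93), where the median over all 7957 was -0.01 and 11 reached 0.9. All of them were lowest on the 0 h arrays. The signal of AT5G37990 went from 1196.1 and 1290.0 at 0 h to 3775.7 and 3607.6 at 12 h and to 2642.3 and 2568.1 at 72 h. Its log2 differences from 0 h ran from 1.07 at 72 h to 1.57 at 12 h, each smaller than that of CP1, whose highest group was also 12 h. AT1G27030 stood between 0.69 and 0.95 and AT1G61930 between 0.93 and 1.27. Both 0 h signals of AT5G16980, 34.1 and 45.3, and of AT1G75290, a reductase-like gene, 8.0 and 10.1, were under the 40th percentile of their arrays, so the size of their differences from 0 h is uncertain. They passed the filter through the later groups, with signals of 72.7 to 125.9 for AT5G16980 and 47.3 to 112.6 for AT1G75290.

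Without the 0 h arrays the likeness was weaker. Over the 10 arrays on deficient medium, r with CP1 was 0.55 for AT1G27030, 0.77 for AT5G16980, 0.42 for AT5G37990, 0.60 for AT1G61930 and 0.19 for AT1G75290. With these 10 arrays, 0 of the 5 were still among the 5 highest, as with Spearman's rho over 12 arrays.

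For scpl31 the likeness was weaker. The 5 highest r were 0.90 for AT5G44530, 0.87 for AT4G28150, AT4G22790 and AT3G62040, and 0.86 for AT5G14940, and 1 of the 7957 reached 0.9. All 5 had their lowest signal on 72 h replicate 2, as scpl31 did. AT3G62040 read 1553.7 and 1329.3 at 0 h against 1052.6 and 520.7 at 72 h, and AT5G14940 read 143.4 and 155.2 against 100.5 and 53.2. Without that array r fell to between 0.40 and 0.65, and 0 of the 5 were still among the 5 highest. AT4G28150 lay above the 40th percentile on only 4 of 12 arrays. At 72 h AT5G44530 stood at -0.47 and AT4G28150 at -1.54 from 0 h, and neither passed. At 3 to 24 h scpl31 stood between -0.62 and -0.46. At these times AT5G44530 stood between -0.15 and -0.03, AT3G62040 between -0.13 and 0.10, and AT4G22790 between -0.32 and -0.07. AT4G28150 stood between -0.95 and -0.21, and AT5G14940 between -0.63 and -0.05.

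**Figure D3:**
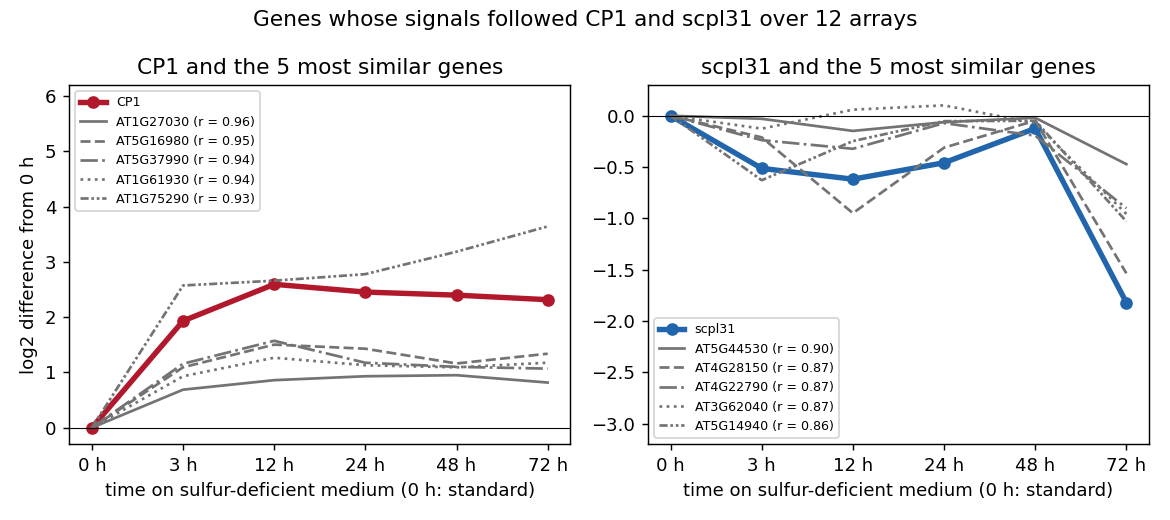
Log2 difference from 0 h (vertical axis) by time (evenly spaced, 0 h set to 0) for CP1 with the 5 genes most like it on the left, and scpl31 with the 5 most like it on the right; r is Pearson's over 12 arrays. The genes like CP1 are all higher at 3 h and later, from 0.69 to 3.64 (AT5G16980 and AT1G75290 were under the 40th percentile at 0 h, so their sizes are uncertain), and those like scpl31 are lowest at 72 h, from -1.54 to -0.47 (that of AT4G28150 is uncertain in size, since both its 72 h signals were under the 40th percentile).

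On the chromosome, 1 of the 4 nearest protein-coding genes around each of CP1 and scpl31 (2 on each side) had a tested probe set of its own. AT4G36860, the second gene from CP1 on one side, fell by 0.71 ± 0.15 at 3 h and by 0.54 ± 0.15 at 12 h on the log2 scale (SE, limma, adjusted p = 0.00757 and 0.0477). The value at 12 h lies close to the threshold of 0.05, and no alternatives are given for this gene. Lower calls made up 6.53% of all probe sets tested at 3 h and 4.33% at 12 h. AT4G36860 stood at -0.38, -0.48 and -0.37 later, so its sign was opposite to that of CP1. AT1G11090, next to scpl31, stood between -0.14 and 0.29 and did not pass at any time, with 0.06 at 72 h.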

How the data were processed

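Linear intensity values, 1 per probe set and array, were used as deposited by the authors; the submitters' processing notes name MAS5 without a version or a scaling target. They were taken to log2 with no offset. Of 22746 non-control probe sets, 14678 exceeded their array's 40th percentile on at least 2 arrays and were tested, with limma 3.58.1 in R 4.3.3: 6 group means fitted to the 12 arrays (6 residual degrees of freedom), a trended prior variance, and Benjamini-Hochberg adjustment over all of them. The fit was tested on simulated data. The SE of a difference rests on a spread shared by all 6 groups, so it is the same for each difference of a gene. The number of arrays limits the precision.

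The platform table pairs 13513 probe sets with 1 gene and 503 with several, and 8730 are unlisted; 13436 matched the TAIR10.1 gene table. A gene with several probe sets was represented by that of highest mean log2 signal. CP1, scpl31 and all lists were chosen with earlier results of these data known. Named are every tested member of the cysteine protease and carboxypeptidase lists, up to 3 of each other list by F test, and the 5 genes most like CP1 and scpl31 each. The other lists were legumain-type enzymes and metacaspases (no metacaspase could be named), protease inhibitors, subtilases, aspartic proteases, organelle proteases and proteasome subunits. Chromosomal neighbours, and correlations with arrays left out, were added after seeing the data. Coordinates are left out because no source used here gives the build.

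Alternatives were an offset of 16.3 before log2, quantile normalization, no filter, a filter at the 60th percentile, an untrended prior variance, a block for the replicate number, a fit to the 2 groups compared, and each array left out in turn. Same-numbered arrays mostly did not deviate together: the correlation between groups of replicate 1 minus replicate 2 ran from -0.23 to 0.20. It exceeded 0.1 in 1 of 15 pairs of groups, 0 h with 3 h (0.20).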

Additional observations from a re-analysis of the deposited data

How the results depend on the processing

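The course of CP1 kept its direction under every alternative run, with log2 differences from 0 h of 1.83 to 2.03 at 3 h, 2.50 to 2.69 at 12 h, 2.31 to 2.59 at 24 h, 2.30 to 2.49 at 48 h and 2.06 to 2.57 at 72 h when 1 array of the groups compared was left out. With an offset it was 2.45 at 12 h and 2.25 at 48 h, which moved by more than 1 SD between replicates. For scpl31 the ranges were -0.66 to -0.37 at 3 h, -0.76 to -0.47 at 12 h, -0.60 to -0.31 at 24 h, -0.27 to 0.02 at 48 h and -2.43 to -1.21 at 72 h, and the value at 48 h was above 0 (0.02) without 0 h replicate 1. With the replicate number as a block the differences of CP1 and scpl31 had the same values, from 1.93 to 2.59 and from -1.82 to -0.12, since every group holds both numbers.

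Over the 8 protease lists, limma called 4 of 39 tested genes other than CP1 and scpl31 at 3 h, 3 at 12 h, 1 at 24 h, 1 at 48 h and 2 at 72 h, with 9, 9, 5, 5 and 8 at an unadjusted p under 0.05. The called genes made up 10.3%, 7.69%, 2.56%, 2.56% and 5.13% of the 39. Over all probe sets tested the called shares were 12.0%, 7.69%, 4.83%, 3.52% and 6.17%, so no share called was above the background. For the unadjusted p no such background is given. Leaving out each of the 12 arrays gave 2 to 5, 1 to 5, 0 to 2, 0 to 1 and 0 to 2. The count at 24 h was 0 with the replicate block (4 at an unadjusted p under 0.05), with no filter (5) and with a prior variance that ignores the signal level (4). At 48 h it was 0 with that untrended variance (4). At 3 h it was 2 with it and 2 with the compared groups alone. At 72 h it was 1 with no filter, with the stricter filter, with the untrended variance and with the compared groups alone. The causes were not tested. The replicate block moved no other count by over 1.5 times. Of the 5 genes most like CP1, 4 stayed among the 5 highest with an offset and 3 with r over the 6 group means. For scpl31 these counts were 5 and 1. With Spearman's rho the count was 0 for CP1 and 0 for scpl31.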
